A study of Pimephales promelas with 28 samples.

Results

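Livers of fathead minnows (Pimephales promelas) exposed to phenanthrene were compared between 48 h and 24 h. Chosen by their labelled agent and time point, 10 of the 28 arrays belong to the comparison, 5 of each time. The fish were sexually regressed females, and total liver RNA, extracted with Trizol, was labelled with Cy3 on one-colour Agilent arrays. The exposed arrays carry a labelled dose of 29 ng per L of phenanthrene at 24 h or at 48 h; the control arrays carry the agent none and a dose of 0 ng per L, with 4 arrays at 24 h and 5 at 48 h. The other 9 arrays, of 72 h, entered the fit for its estimate of the spread. The labels give neither the age of the fish nor whether RNA was pooled, so the p-values cover the spread among samples as deposited, which may be partly technical.

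Phenanthrene is a polycyclic aromatic hydrocarbon found in petroleum and in combustion products. The liver of fish takes up such compounds and oxidises them with cytochrome P450 enzymes, several of which are under control of the aryl hydrocarbon receptor, and phenanthrene is a weak ligand of that receptor compared with larger members of its class. Liver transcripts of fish also differ with feeding and time of day. The 15208 probes carry only contig, gi or clone identifiers. Of the contig and clone identifiers, 0 matched the reference table used here. The 3309 gi numbers were compared only with its gene IDs, and 0 were equal. Transcripts are therefore named by probe, no role is given to any of them, and the liver label could not be checked against marker genes.

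Array quality and scan day overlapped with time. Of the exposed 48 h arrays, 4 were scanned on the first of 2 days, as were 4 of the 48 h controls. These 8 were the only arrays of the series on 2 of the 5 slides. Every 24 h array of either agent was scanned on the second day. The array titled Low25 was the exposed 48 h array scanned on the second day, and it shared slide 5 with Low115, an exposed 24 h array. Scan day and time can be told apart only through Low25 and its control counterpart Cntl6.

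A pair of arrays stand apart. Low116 (24 h) had 5127 probes well above background against 9216 to 10409 on the other 24 h arrays, and its median negative-control signal was 4.23 on the log2 scale, where the other 9 exposed arrays of both times lay at 2.42 or less. Low22 (48 h) had 203 spots marked non-uniform and 8 saturated spots, and its bright-corner spots read 17.9 on the log2 scale, against 10.1 to 11.8 on control arrays. A 72 h exposed array, Low74, which adds to the spread of each fit, had 499 non-uniform and 36 saturated spots and bright-corner spots at 19.0. Results are given with and without Low116 and Low22. Between times, probes well above background numbered 10318 ± 1367 at 48 h (SD, n = 5) and 9017 ± 2228 at 24 h (SD, n = 5), with overlapping groups, an exact two-sided permutation p of 0.325 and an adjusted p of 0.65 over 4 measures. The log2 75th percentile of the signal was 8.34 ± 0.44 at 48 h and 7.81 ± 0.68 at 24 h (SD, n = 5 each; exact permutation p = 0.19, adjusted 0.65), and the smallest p this design allows is 0.00794.

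**Figure D1:**
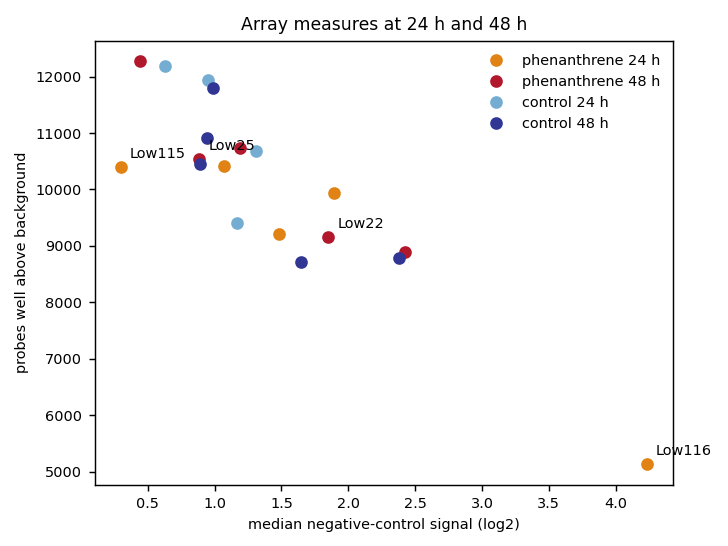
Median negative-control signal (log2, horizontal axis) and number of probes well above background (vertical axis) for the 19 arrays of 24 h and 48 h, coloured by agent and time. Low116 lies alone at 5127 probes and a negative-control signal of 4.23.

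All levels below are log2 of the scanner's processed signal minus the array's 75th percentile, and a difference is 48 h minus 24 h. Testing required a probe to be well above background on 3 or more arrays of some group, and 11492 probes met this. A probe was called at a Benjamini-Hochberg adjusted p under 0.05 in limma.

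In exposed liver 1 of 11492 probes, or 0.0087%, was called, and it was lower at 48 h. Before adjustment 1323 probes, 11.5% of those tested, reached p under 0.05, of which 410 were higher and 913 lower at 48 h. The median difference over all tested probes was -0.10, and it was 0.01 after quantile normalization, where the unadjusted split was 683 higher and 772 lower. With normexp background correction the split was 607 and 788. Among probes below the unadjusted threshold, lower at 48 h was thus the more frequent direction under each of these 3 settings, by a margin that depended on the setting. By size alone, 720 probes were at least 2-fold higher and 1183 at least 2-fold lower.

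Brightness divided these counts. Among the 4827 probes that were well above background on all 10 exposed arrays, 209 were higher and 320 lower at the unadjusted threshold (11% of them), around a median difference of -0.02. Among the other 6665, 201 were higher and 593 lower (11.9%), around a median of -0.18. Without Low116 and Low22 these 6665 probes gave 320 higher and 411 lower, around a median of -0.01. Without these arrays the 4827 brighter probes gave 185 higher and 286 lower, around a median of -0.07. The excess of lower values was therefore much smaller among the 6665 without these arrays, and it remained among the 4827. Low116 measured only 5127 probes well above background, which bounds the brighter class, so the 6665 are not all dim. A fit without Low116 and Low22 had 7377 probes well above background on all arrays compared. Of these, 274 were higher and 500 lower at the unadjusted threshold, around a median of -0.09.

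UF_Ppr_AF_106564 (identifier gi_73571418) was the called probe. At 24 h it read -4.82 on Low111, -3.75 on Low114, -3.28 on Low116, -4.45 on Low107 and -4.88 on Low115. At 48 h it read -6.47 on Low22, -5.76 on Low24, -6.46 on Low26, -6.61 on Low23 and -6.19 on Low25. All 48 h values lay below all 24 h values, including that of Low25, which was scanned with the 24 h arrays. The probe was chosen by its p with Low25 in the fit, so this order is a description with no test. The signal of the probe was dim: 3 of the 24 h arrays and 0 of the 48 h arrays measured it well above background. The fitted difference was -2.06 (SE 0.35, adjusted p = 0.0433 by limma). No 48 h array measured it well above background, so its fold was computed with a floor. Each 48 h array enters at the dimmest reading that still counted as well above background there, or at its own if higher. On that basis the 24 h level was 1.57-fold higher. The 24 h mean includes Low111 and Low116, which did not measure it well above background, so this fold is not a strict lower limit. The probe met the requirement for testing only through exposed liver of 24 h, the group in which it is high, and without that filter its adjusted p was 0.0831. Leaving out 1 exposed array at a time gave adjusted p-values of 0.0285 to 0.195, and the call was lost without any 1 of 7 arrays (Low114, Low116, Low107, Low22, Low26, Low23 or Low25). The difference was -0.21 with normexp background correction (adjusted p = 0.365) and -1.745 with scan day as a covariate (adjusted p = 0.753 by limma).

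The control arrays showed the same order at this probe. At 24 h the controls read -4.87, -4.63, -5.40 and -4.77 (mean -4.92 ± 0.34, SD, n = 4), and at 48 h they read -5.94, -6.59, -5.54, -7.09 and -7.16 (mean -6.46 ± 0.71, SD, n = 5). All 48 h controls read below all 24 h controls for UF_Ppr_AF_106564, by a difference of -1.55 (SE 0.37, adjusted p = 0.712 by limma), but only 1 of these 9 control readings was well above background (at 24 h), so this difference and order compare readings most of which were not well above background. Its exposed step minus its control step was -0.51 (95% confidence interval -1.57 to 0.54). At 72 h the exposed arrays averaged -6.96 ± 0.25 (SD, n = 4), again with none well above background.

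The next lower probe, UF_Ppr_AF_102658 (gi_72427001), was well above background on all 10 exposed arrays. At 24 h it read -1.54 on Low111, 0.22 on Low114, 0.47 on Low116, -0.52 on Low107 and -1.21 on Low115, and at 48 h it read -3.46 on Low22, -3.06 on Low24, -3.75 on Low26, -3.56 on Low23 and -3.64 on Low25. The 48 h arrays lay close together and all below the 24 h arrays. The difference was -2.98 (SE 0.57), a 7.88-fold lower level, with an adjusted p of 0.107 by limma; it was -2.74 without Low116 and Low22 and -1.51 with normexp. In controls the probe averaged -1.80 ± 0.32 at 24 h (SD, n = 4) and -2.20 ± 0.40 at 48 h (SD, n = 5), and those groups overlapped. At 72 h the exposed arrays spread from -3.57 to 0.66.

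UF_Ppr_AF_108962 (gi_72751871), also well above background on all 10 arrays, had a mean of 0.69 ± 0.54 at 24 h and -1.01 ± 0.46 at 48 h (SD, n = 5 each). Its 24 h values ran from 0.01 on Low116 to 1.46 on Low111, and its 48 h values from -1.65 on Low26 to -0.37 on Low25, with no overlap. The difference of -1.70 (SE 0.36) had an adjusted p of 0.107, and it passed with normexp background correction at -1.35 (adjusted p = 0.0296 by limma). In controls the 48 h arrays also lay below the 24 h arrays, by -0.52 (SE 0.38), a difference that did not pass.

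Among higher probes, UF_Ppr_AF_116364 (contig FJU.2853.C1) had the largest difference of those named for the exposed step. At 24 h it read 0.94 on Low111, 0.44 on Low114, 1.03 on Low116, 0.57 on Low107 and 0.94 on Low115. At 48 h it read 5.84 on Low22, 2.16 on Low24, 4.42 on Low26, 2.14 on Low23 and 3.28 on Low25. The 24 h arrays were tight and the 48 h arrays were spread over a wide range above them. The difference was 2.79 (SE 0.73, 6.89-fold), with an adjusted p of 0.189 by limma. It was 2.28 without Low116 and Low22, 2.55 with normexp and 2.49 on the second scan day alone. At 72 h the exposed mean was 3.02 ± 1.49 (SD, n = 4). Controls averaged 1.72 ± 0.20 at 24 h (SD, n = 4) and 1.96 ± 1.63 at 48 h (SD, n = 5), and their groups overlapped. That overlap came from Cntl3, a 48 h control at -0.92. The other 48 h controls read 2.37 to 3.08, above all 24 h controls, which read 1.60 to 2.03.

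UF_Ppr_AF_112475 (FJU.5267.C1) read -1.30, -1.02, -0.88, -1.78 and -0.59 at 24 h, in the array order above, and -0.60, 0.17, 0.18, 0.04 and -0.21 at 48 h. The groups met only at Low22 and Low115. The difference of 1.03 (SE 0.25) had an adjusted p of 0.181 and was 1.22 without Low116 and Low22, where the groups did not overlap. With normexp it was 0.85 and passed (adjusted p = 0.0296 by limma), and within slide 5 it was 0.39. The control step of UF_Ppr_AF_112475 was -0.35 (SE 0.27), and the exposed step minus the control step was 1.38 (95% confidence interval 0.62 to 2.13), which did not pass (adjusted p = 0.999 by limma).

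UF_Ppr_AF_110166 (gi_72486432) had a mean of -3.80 ± 0.54 at 24 h and -2.40 ± 0.61 at 48 h (SD, n = 5 each), with all 48 h arrays above all 24 h arrays. Low25, at -3.11, was the lowest of the 48 h arrays and Low111, at -3.20, the highest of the 24 h arrays. At 24 h, 3 of the 5 arrays measured the probe well above background, and Low116 and Low115 did not. The difference was 1.40 (SE 0.33, adjusted p = 0.166 by limma), and it was 0.72 with normexp and 0.69 on the second scan day alone. The control step was 0.15 (SE 0.35).

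UF_Ppr_AF_117844 (FJU.4613.C1) was higher at 48 h for both agents. In exposed liver it read -4.11, -2.60, -1.71, -3.06 and -5.31 at 24 h and -1.45, 0.07, 0.06, -2.13 and -0.78 at 48 h. Low116 was the 24 h array that reached into the 48 h range. Only 2 of the 5 exposed arrays of 24 h measured it well above background, and Low116, Low111 and Low115 did not. All 5 of 48 h did. The difference was 2.51 (SE 0.60, adjusted p = 0.167 by limma), or 3.07 without Low116 and Low22, and 1.33 with normexp. The control step was 1.79 (SE 0.63), with all 5 arrays of 48 h above all 4 of 24 h, and the steps differed by 0.72 (95% confidence interval -1.07 to 2.52).

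**Figure D2:**
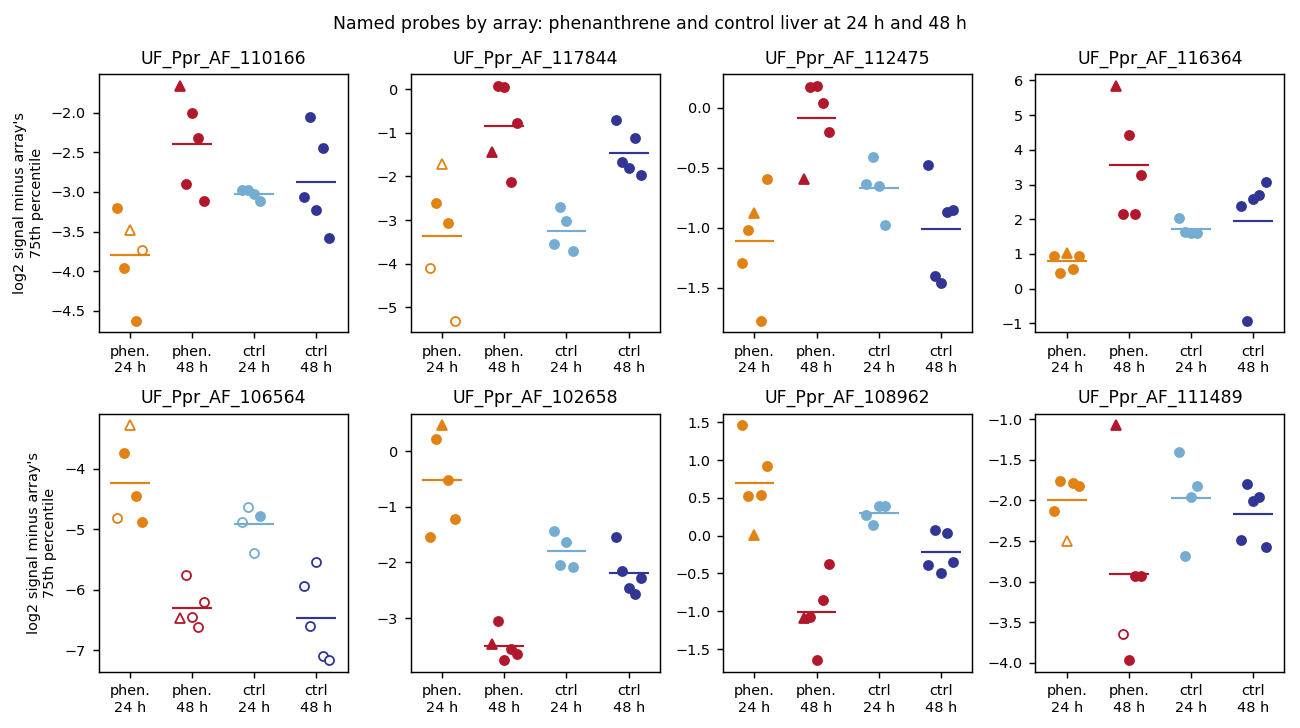
Level of 8 named probes (log2 signal minus the array's 75th percentile, vertical axis) on each phenanthrene and control array of 24 h and 48 h; lines are group means, open symbols are spots not well above background and triangles are Low116 and Low22. UF_Ppr_AF_106564 is open on all 5 exposed arrays of 48 h, while UF_Ppr_AF_102658 is filled on all 10 exposed arrays.

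Without Low116 and Low22, 0 probes were called (0%), the smallest adjusted p was 0.3 by limma, and 1202 probes (10.5%) passed the unadjusted threshold, of which 505 were higher and 697 lower. Leaving out 1 further exposed array at a time gave 733 to 1400 probes below that threshold. The 733 were found without Low26, with 373 higher and 360 lower, and without Low114 the split was 600 and 608. The excess of lower probes thus depended on single arrays of either time. With Low116 and Low22 kept, leaving out Low26 gave 448 higher and 645 lower. With only Low116 and Low22 left out, UF_Ppr_AF_111489 (FJU.5688.C4) was the lower probe with the smallest p. It read -2.13, -1.75, -1.78 and -1.82 on the 4 remaining arrays of 24 h and -3.64, -3.96, -2.94 and -2.93 on the 4 of 48 h. The difference was -1.50 (SE 0.31, adjusted p = 0.3). Low22 read -1.08 for it, above every other array of 24 h or 48 h in either agent, and with both arrays in the fit the difference was -0.91. Another probe of the same contig cluster, UF_Ppr_AF_110635, differed by -1.22 (SE 0.54) over all arrays.

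Groups without overlap were also counted. Over the 11312 tested probes with a value on all 10 exposed arrays, the 48 h and 24 h arrays did not overlap at 189 (1.67%), 44 higher and 145 lower at 48 h. Without Low116 and Low22 the number was 520 of 11479 (4.53%), 178 higher and 342 lower, but 4 arrays against 4 separate more readily than 5 against 5. In controls, with 5 against 4, it was 484 of 11469 (4.22%), 129 higher and 355 lower. Of the probes without overlap, 11 were shared in direction by both agents, 5.85% of the exposed and 2.31% of the control ones, and 0 were opposite.

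At 3 of 11292 probes (0.0266%) all 10 arrays of 48 h lay below all 9 of 24 h, and at 0 they lay above. These were UF_Ppr_AF_106564, UF_Ppr_AF_106953 (FJU.8063.C1) and UF_Ppr_AF_102531 (gi_72486634), the last 2 chosen after their values were seen. UF_Ppr_AF_106953 differed by -1.69 in exposed and -1.59 in control liver, and UF_Ppr_AF_102531 by -1.08 and -1.14.

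The same step in control liver gave 0 called probes (0%), with a smallest adjusted p of 0.712 by limma, and 598 (5.2%) below the unadjusted threshold of 0.05, with 136 higher and 462 lower at 48 h. After median scaling the control split was 204 and 327, and after quantile normalization 230 and 430. Which agent had more probes below that threshold depended on the setting: with only the arrays compared there were 1193 in control and 880 in exposed liver, and with array weights 1873 and 1381. Without Low116, Low22 and Low74 there were 908 in control and 1506 in exposed liver. UF_Ppr_AF_104491 (FJU.10353.C3) was the higher control probe with the smallest p. Its control step was 1.77 (SE 0.48), and in exposed liver it differed by 0.998 (SE 0.45), from a mean of -0.70 ± 0.31 to 0.30 ± 0.78 (SD, n = 5 each). Neither step of UF_Ppr_AF_104491 passed. In exposed liver another probe of its contig cluster, UF_Ppr_AF_116381, went the opposite way, by -0.70 (SE 0.63).

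Set side by side, the exposed and control steps share no array but share the scan-day pattern. Across the 11492 tested probes they correlated with r = 0.38 (rho = 0.34), or r = 0.37 without Low116 and Low22; probes are not independent replicates. The signs were the same at 61.9% of all tested probes and at 77.7% of the 1323 probes below the unadjusted threshold in exposed liver. Both steps were below that threshold at 136 probes, which are 10.3% of the exposed and 22.7% of the control ones, and 131 of them had the same sign, 30 higher and 101 lower at 48 h. With scan day as a covariate the correlation was r = 0.66 (rho = 0.55) and 69.8% of signs were the same, but both steps then subtract the same fitted day effect. Time and scan day cannot be told apart by these counts.

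**Figure D3:**
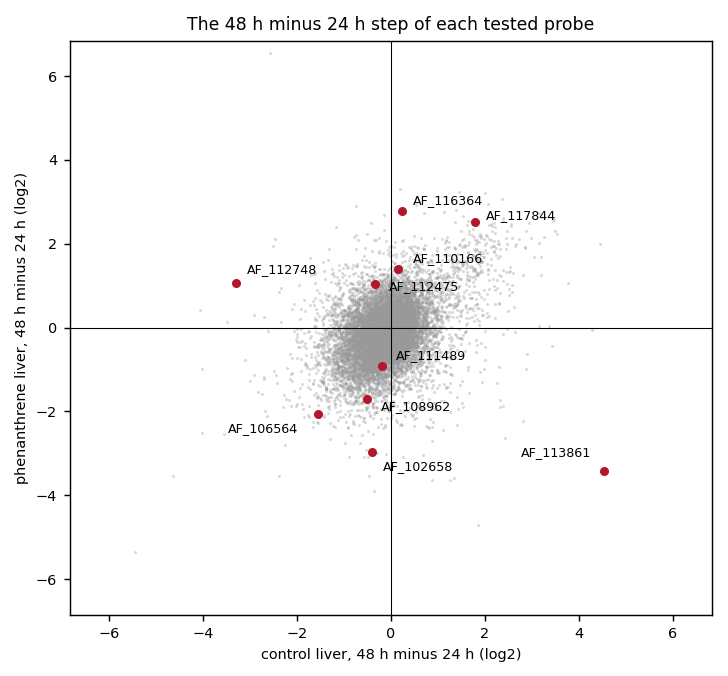
Difference between 48 h and 24 h in control liver (log2, horizontal axis) and in phenanthrene liver (log2, vertical axis) for each of the 11492 tested probes, with named probes in red. The cloud tilts upward (r = 0.38); UF_Ppr_AF_117844 and UF_Ppr_AF_106564 lie along the tilt, and UF_Ppr_AF_116364 and UF_Ppr_AF_102658 lie near a control step of 0.

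Probes at least 2-fold higher at 48 h in both agents numbered 268, and 217 were at least 2-fold lower in both, while 35 were higher in exposed and lower in control liver and 40 the reverse. Both lists were chosen by these values, so their difference between times is a description with no test. The mean over the 268 higher probes was -3.22 on Low111, -1.87 on Low114, -0.87 on Low116, -2.98 on Low107 and -3.90 on Low115 at 24 h. At 48 h it was -1.32 on Low22, -2.41 on Low24, 1.64 on Low26, -1.29 on Low23 and -0.95 on Low25. Arrays of one group thus lay far apart, and the times overlapped. Low116, the highest array of 24 h, measured only 117 of the 268 well above background. Apart from Low116 the times still overlapped, at Low114 and Low24. In 48 h controls the mean ran from -3.73 on Cntl3 to 0.37 on Cntl6, and at 72 h, whose arrays the choice did not use, it ran from -3.82 to 0.14 in controls and from -3.49 to -0.25 in exposed liver. Of the 268, 46 (17.2%) had an unadjusted p under 0.05 in the exposed step, against 11.5% of all tested probes, and 0 were called by limma; since the size of this step chose them, nothing is read from that count. On all 10 exposed arrays 85 (31.7%) were well above background, against 42% of all tested probes. Their median exposed difference was 1.63, or 1.05 without Low26. The 217 lower probes were more even, with means of -2.97 to -2.12 on the exposed arrays of 24 h and -4.54 to -3.53 on those of 48 h.

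The test of whether the exposed step differed from the control step called 0 probes (0%), with a smallest adjusted p of 0.999 by limma, and 364 (3.17%) had an unadjusted p under 0.05. Of these, 202 were higher and 162 lower in the exposed step, a split that was 128 and 223 after median scaling. For 3.7% of probes the 95% confidence interval of this difference stayed inside 2-fold in both directions, and for 48.8% inside 4-fold, so steps of similar size in both agents and steps that differ several-fold could not be told apart for most probes. UF_Ppr_AF_112748 (FJU.10446.C2) had the smallest p for a higher exposed step. Its exposed means were 0.11 ± 1.15 at 24 h and 1.16 ± 0.53 at 48 h (SD, n = 5 each), while its control means were 2.22 ± 2.14 at 24 h (SD, n = 4) and -1.08 ± 0.51 at 48 h (SD, n = 5). The steps of UF_Ppr_AF_112748 differed by 4.36 (SE 1.03, adjusted p = 0.999 by limma). One 24 h control, Cntl95, read -0.96 against 2.80 to 3.54 on the other 3, and without it the difference was 5.41 and passed (adjusted p = 0.0107). UF_Ppr_AF_113861 (FJU.13861.C1) had the smallest p for a lower exposed step, by -7.95 (SE 1.89), or -3.36 with normexp. Its exposed arrays ran from -3.09 to 0.62 at 24 h and from -6.53 to -1.35 at 48 h. The 24 h controls lay at -0.29, -1.74, -7.28 and -6.84, a wide spread within a group. Low116, Low22, Low24, Low25, Cntl92 and Cntl95 did not measure UF_Ppr_AF_113861 well above background. Every reading of -5.81 or lower among these groups came from such a spot. The size of -7.95 therefore rests partly on dim readings.

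Averaged over both agents, a contrast added after the data were seen, 2 probes were called (0.0174%) and 1594 (13.9%) passed unadjusted, with 475 higher and 1119 lower at 48 h. The called probes were UF_Ppr_AF_106564, at -1.80 (SE 0.26, adjusted p = 0.00227 by limma), and UF_Ppr_AF_104339 (FJU_SB_30.115.C2), at -1.96 (SE 0.35, adjusted p = 0.036). In exposed liver UF_Ppr_AF_104339 averaged -3.96 ± 0.68 at 24 h and -6.20 ± 0.76 at 48 h (SD, n = 5 each), with no overlap, and it was well above background on 2 and 0 of 5 arrays. With the same floor at 48 h its 24 h level there was 1.90-fold higher. This is not a strict lower limit, as Low111, Low116 and Low115 at 24 h did not measure it well above background. Its exposed difference was -0.20 with normexp. Each called probe met the requirement for testing only through a 24 h group, where it was high, the exposed one for UF_Ppr_AF_106564 and the control one for UF_Ppr_AF_104339. Without the filter on dim probes UF_Ppr_AF_106564 had an adjusted p of 0.00449 for the average and UF_Ppr_AF_104339 one of 0.0539 by limma, which did not pass. With scan day as a covariate 0 probes were called by limma for the average and 659 were unadjusted, and without Low116 and Low22 1 was called. Array weights gave 387 calls, 82 higher and 305 lower, and leaving out Low116, Low22 and Low74 gave 12.

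With scan day as a covariate 0 probes were called by limma and 736 passed unadjusted, with 238 higher and 498 lower; in control liver 0 were called and 368 passed unadjusted, 159 higher and 209 lower. These fits rest on Low25 and Cntl6, the 48 h arrays of the second day. On the second scan day alone, where Low25 is the lone exposed 48 h array and is assumed to vary like the other groups, 284 were below that threshold. UF_Ppr_AF_109657 (gi_72423051) was called there, chosen after its values were seen. In exposed liver it read 2.87 on Low25 and -5.52 or lower on the other 4 arrays of 48 h, and -7.24 to -3.50 at 24 h, so 1 array decided its exposed difference. Without Low25 its exposed difference was -0.62 in place of 1.26. In 48 h controls it read 0.53 on Cntl7, -0.36 on Cntl6, -4.19 on Cntl3, -5.67 on Cntl4 and -6.32 on Cntl5. The 24 h controls read -7.62 to -4.11, and the control step of 2.82 (SE 1.54) did not pass.

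**Figure D4:**
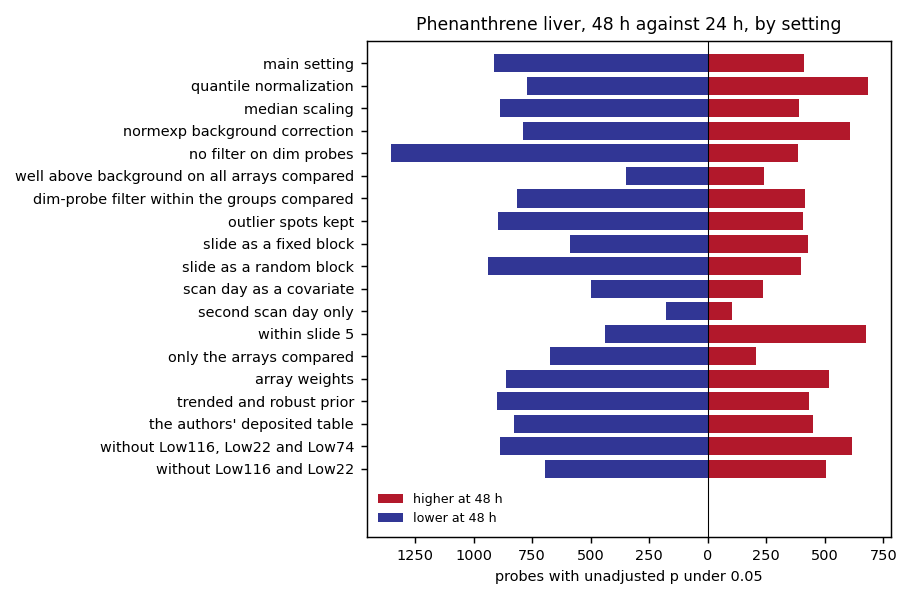
Number of probes with an unadjusted p under 0.05 in the exposed step (horizontal axis), higher at 48 h to the right and lower to the left, under each setting. Lower probes outnumber higher ones in all settings shown except within slide 5, and the numbers are smallest on the second scan day alone, at 105 and 179.

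Slide 5, the slide with both exposed times, holds Low25 and Low115. They were compared with each other in limma, and the spread came only from arrays that share both group and slide. The 121 probes called higher on Low25 in that comparison form the set described here. On 119 of these 121 probes Low115 was the lowest of all 28 arrays. The mean over the set was -3.09 on Low115, 1.14 on Low25 and between 0.54 and 1.03 on the other exposed arrays of 24 h and 48 h, and the lowest of the remaining arrays was a 72 h control at -0.27. Low115 measured 56 of the 121 well above background, against 108 or more on every other array. In the exposed step over all arrays the median difference of the set was 0.88, and without Low115 it was 0.09. The set thus separates 1 array of 24 h from the rest and not the times. Low115 had 10398 probes well above background in all, within the range of the other arrays.

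**Figure D5:**
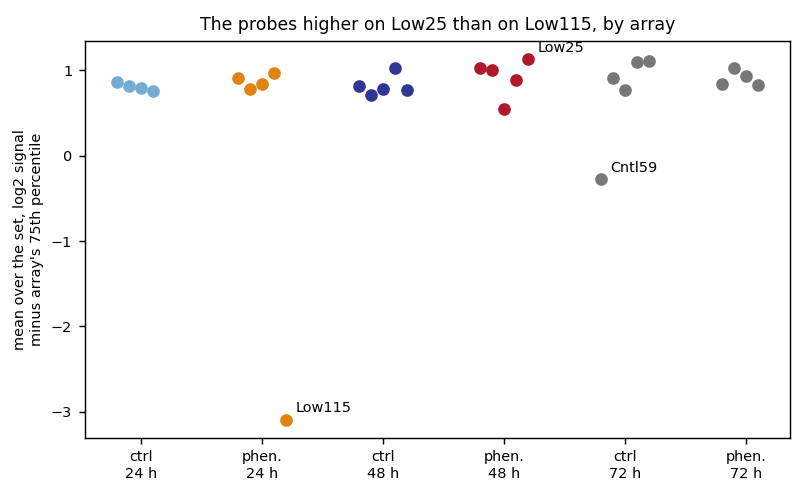
Mean level (log2 signal minus the array's 75th percentile, vertical axis) of the 121 probes called higher on Low25 than on Low115, for each of the 28 arrays by agent and time. Low115 lies at -3.09 and every other array at -0.27 or above.

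Under alternatives, the called probes in exposed liver differed. With normexp background correction 5 were called in limma, and UF_Ppr_AF_106564 was not among them. Lower at 48 h were UF_Ppr_AF_108962 and UF_Ppr_AF_107883 (FJU_SB_30.281.C3), and higher were UF_Ppr_AF_112475, UF_Ppr_AF_116854 (FJU.4864.C1) and UF_Ppr_AF_111284 (FJU.3261.C1). The 3 of these not described above were chosen after their values were seen, and all had 48 h arrays without overlap with those of 24 h. UF_Ppr_AF_107883 averaged 1.14 ± 0.29 at 24 h and -0.01 ± 0.38 at 48 h, UF_Ppr_AF_116854 2.11 ± 0.11 and 2.996 ± 0.44, and UF_Ppr_AF_111284 0.52 ± 0.38 and 1.24 ± 0.31 (SD, n = 5 each). In the same order, their control steps were -0.27 (SE 0.27), 0.31 (SE 0.27) and 0.38 (SE 0.24), each in the direction of the exposed step, and none passed. Within slide 5 their exposed differences were -0.63, 0.63 and 0.04. Other probes of the cluster of UF_Ppr_AF_107883 were lower too at the fitted mean, UF_Ppr_AF_104977 by -0.99 (SE 0.56) and UF_Ppr_AM_119876 by -1.47 (SE 0.50), and neither passed.

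Without Low111, 5 probes were called, all lower at 48 h: UF_Ppr_AF_106564, UF_Ppr_AF_102658, UF_Ppr_AF_104339, UF_Ppr_AF_102490 (FJU.3789.C1) and UF_Ppr_AF_104638 (FJU.10084.C3), the last 2 chosen after their values were seen. Low111 was the lowest 24 h array at each of the last 3, reading -5.11, -4.85 and -6.14. Over all arrays UF_Ppr_AF_104638 differed by -1.61 (SE 0.50). Another probe of its contig cluster, UF_Ppr_AF_107084, differed by -0.45 (SE 0.57). Without Low107 the call was UF_Ppr_AF_103666 (FJU.3170.C1), also chosen after its values were seen, which read -6.92 on Low107 and between -3.62 and -1.62 on the other 24 h arrays. Its 48 h values ran from -6.56 to -5.30 on 4 arrays, with the spot of Low22 left out as an outlier. In controls it averaged -3.73 ± 0.67 at 24 h (SD, n = 4) and -5.78 ± 0.67 at 48 h (SD, n = 5). These 3 late additions were dim, and with normexp their exposed differences were -0.43, -0.16 and -0.77.

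The number of arrays limited the precision. The median within-group SD over tested probes was 0.804 log2 units. For 16.8% of probes the 95% confidence interval of the exposed step stayed inside 2-fold in both directions, and for 72.2% inside 4-fold.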

How the data were processed

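Total RNA of 28 liver samples was hybridised to one-colour arrays, 1 sample per array. Spot tables were made with Feature Extraction 10.7.1.1, per the file headers, and give a linear, background-corrected processed intensity for 15208 probes besides 536 control spots. The authors also deposited a table of log2 values, whose normalization and centring are not given in the sources used here; its 1 column that belongs to no sample was not used. Over probes well above background its columns followed the log2 processed signal of their arrays with slopes from 0.87 (Low22) to 1.08 (Low115). Over all probes the correlation was lowest on Low116, at 0.953. The column of Low115 holds 10683 values.

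Here the log2 intensity was reduced by each array's 75th percentile, 779 spots marked non-uniform or population outlier were removed, and saturated ones stayed in. The 6 group means were fitted over all 28 arrays with limma 3.58.1 in R 4.3.3 (22 residual degrees of freedom), with two-sided moderated tests. Probes are shown by rule: in each direction the 2 with the smallest p over all arrays, among those well above background on all 10 exposed arrays, and without Low116 and Low22, and 1 each for the control step and for the difference between steps. The groups, comparisons, lists and probe rule were chosen with earlier results of these data known. Normexp (offset 50) used the median spot signal, in place of the planned mean spot signal, and was followed by quantile normalization. The other alternatives were scaling, dim-probe filters, slide and scan day, array weights, the prior, the authors' table and leaving out arrays. Probes could not be paired with gene names, so the marker and gene lists were not used. The highest correlation between any 2 arrays was 0.959, and no array was treated as a repeat of another. Replicate numbers were given in accession order and pair nothing.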

Additional observations from a re-analysis of the deposited data

Results flagged for a closer look

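Some values lie far from the rest of their group, and chance flags about 5% of groups. UF_Ppr_AF_109657, UF_Ppr_AF_115247, UF_Ppr_AF_107437, UF_Ppr_AF_104638 and the set low on Low115 were chosen through a single extreme array, so the number of flags cannot be set against that share. Among exposed arrays, UF_Ppr_AF_109657 read 2.87 on Low25 (48 h, replicate 5), UF_Ppr_AF_111284 read 1.79 on Low22 (48 h, replicate 1) and UF_Ppr_AF_104638 read -6.14 on Low111 (24 h, replicate 1). Low116 (24 h, replicate 3) had 5127 probes well above background, Low22 had 203 non-uniform spots, and the mean over the 121 probes higher on Low25 than on Low115 was -3.09 on Low115 (24 h, replicate 5). Among 24 h controls, UF_Ppr_AF_116364 read 2.03 on replicate 1, UF_Ppr_AF_112748 read -0.96 on replicate 4 and UF_Ppr_AF_107883 read 0.56 on replicate 2. Among 48 h controls, UF_Ppr_AF_115247 read -5.27 and UF_Ppr_AF_107437 read -5.95 on replicate 1, UF_Ppr_AF_116364 read -0.92 and UF_Ppr_AF_104638 read -2.32 on replicate 2, and UF_Ppr_AF_113861 read -0.70 on replicate 5.

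The bright-corner control spots, which no comparison used, read 17.9 on the log2 scale on Low22, above the highest control array at 11.8.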

How the results depend on the processing

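For exposed liver at 48 h against 24 h, where 1 probe was called, 0 were called by limma with quantile normalization, median scaling, no filter on dim probes, only probes well above background on all arrays compared, slide as a fixed block, scan day as a covariate, only the arrays compared, the authors' deposited table, a robust trended prior, or without Low116, Low22 and Low74, a 72 h array left out after the data were seen. At an unadjusted p under 0.05, probes well above background on all arrays compared gave 592 of 4827. No filter on dim probes gave 1742 of 15208. The rest of these settings, with 11492 probes tested, gave 736 (scan day as a covariate) to 1506 (without Low116, Low22 and Low74). Normexp gave 5 called, array weights 10 and slide 5 alone 127; leaving out 1 array at a time gave 0 to 5, and 1002 to 1572 unadjusted. Without Low116 and Low22 the count of 0 became 1 on the second scan day alone, 109 within slide 5 and 10 with array weights. For control liver the count of 0 became 2 on the second scan day (UF_Ppr_AF_115247 and UF_Ppr_AF_107437), 1 with only the arrays compared (UF_Ppr_AF_118425) and 38 with array weights, and 0 to 1 with 1 array left out. For the difference between steps it was 1 on the second scan day (UF_Ppr_AF_115247) and 0 to 1 with 1 array left out; those 3 probes were chosen after their values were seen. For the average of both steps the count of 2 became 0 with slide as a fixed block, scan day as a covariate, probes well above background on all arrays compared or the authors' deposited table, 1 without the dim-probe filter, 4 with normexp, 12 without Low116, Low22 and Low74, 387 with array weights, and 1 to 5 with 1 array left out. Without Low116 and Low22 the difference in negative-control signal turned from -0.44 to 0.049 and that in non-uniform spots from 39 to -2, neither past the threshold. With 1 array left out the exposed difference of UF_Ppr_AF_109657 ran from -0.62 (without Low25) to 1.92. For the other named probes, the step or step difference each was named for kept its direction under the alternatives run for it. This does not hold for the exposed steps of probes named for another contrast. That of UF_Ppr_AF_112748 was 1.055 and turned to -0.045 within slide 5. That of UF_Ppr_AF_107437 was -0.25 and turned to 0.257 with quantile normalization. With 1 array left out, that of UF_Ppr_AF_118425 ran from -0.153 to 1.176. The cause of these changes was not tested. No paired analysis was possible because the labels carry no replicate numbers. The normexp setting changed the spot signal, the background correction, the offset and the scaling together, so which of them moved a value was not tested.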
